A study of Mus musculus with 9 samples.

Results

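The marrow stromal niche markers are 10 genes, Cxcl12, Kitl, Lepr, Pdgfra, Pdgfrb, Foxc1, Ebf3, Vcam1, Il7 and Grem1, known for their activity in the supporting cells of bone marrow. They were chosen by name and matched to the gene names on the arrays. All 10 were found among the 37316 gene names of the arrays, with 24 of the 56585 probes kept. A gene or probe was tested when some group had its spots clearly brighter than background on each of 3 arrays, which 10 of the 10 genes and 21 of the 24 probes met, beside 29410 genes and 44300 probes in all. A probe that met this only through the group where it was bright had to differ between groups, so the arrays on which a probe was above background are given with its values.

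Reticular stromal cells of the marrow line the sinusoids and are marked by the leptin receptor and by plentiful Cxcl12. They hold haematopoietic stem cells and early lymphoid cells in place through chemokine, stem cell factor and interleukin 7, and their identity is kept by transcription factors such as Foxc1 and Ebf3. Megakaryocytes sit against the same sinusoids and meet this stroma through the chemokine receptor Cxcr4 and through the integrin that binds Vcam1.

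RNA of bone marrow megakaryocytes (mMKs) of mice was measured on Agilent 1-colour arrays, with 3 arrays in each of 3 groups. The groups were mice that had not been irradiated (Ctrl), mice at 1 day post irradiation (1 dpi) and mice at 3 dpi. The question put to the comparisons is how the stromal genes read in these cell preparations before irradiation (IR) and at each day after it. The labels give male mice and megakaryocytes of bone marrow, and the study's methods give whole-body γ-rays at 5 Gy and selection of CD41+ and then CD42d+ cells on magnetic particles. The strain is C57BL/6 where the methods name one for wild-type mice, and no age is given with the arrays. The methods describe another maker's chip for this assay, whereas the array files carry Agilent's design and software. Replicates came from different donors, and the 3 arrays of a group limit the precision of every value.

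The share of spots well above background was 69.1%, 79.5% and 80.8% in the Ctrl arrays, 72.3%, 74.8% and 75.6% at 1 dpi, and 81.8%, 81.6% and 81.8% at 3 dpi. The 75th percentile of log2 intensity was 10.03, 10.62 and 10.66 in Ctrl, 9.33, 9.45 and 9.43 at 1 dpi, and 10.37, 10.55 and 10.53 at 3 dpi. Ctrl replicate 1 was thus the array with the fewest bright spots, and the 1 dpi arrays had the lowest intensities. No other array lay on the slide of Ctrl replicate 1, while the other 8 arrays shared a second slide, so for that array slide and sample cannot be told apart. Every level below is log2 intensity minus that array's 75th percentile (scaled log2), and a value is read only against the same probe on other arrays. After this scaling the genes tested had, as a whole, a median change (log2) of 0.25 at 1 dpi against Ctrl, 0.11 at 3 dpi against Ctrl and -0.11 at 3 dpi against 1 dpi. Scaling each array to its median in place of the 75th percentile moved these to -0.07, -0.01 and 0.08.

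The label of the samples was checked against 19 megakaryocyte markers, among them Itga2b, Gp9 and Pf4. All 19 were well above background on all 9 arrays. Their mean scaled log2 level was 1.63 to 1.81 in Ctrl, 1.48 to 1.60 at 1 dpi and 1.84 to 1.86 at 3 dpi. By limma 0 of the 19 were called in each of the 3 comparisons, where called means an adjusted p (Benjamini-Hochberg) under 0.05 and a fold change of at least 2 in either direction. Of all genes tested 15.2% were called at 1 dpi against Ctrl, 8.80% at 3 dpi against Ctrl and 8.80% at 3 dpi against 1 dpi. At an unadjusted p under 0.05 there were 12, 11 and 12 of the 19 markers, and by the methods' own test with the same fold there were 0, 0 and 0. With arrays scaled to their median, 2 of the 19 were called lower at 1 dpi and 2 higher at 3 dpi against 1 dpi.

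Several of the genes have more than 1 probe, and which probe is read decides whether Kitl, Lepr, Pdgfra and Il7 are called at 3 dpi against Ctrl. The 60-base probes lie at different places along each gene, so the first 30 bases of probes that differed in these 4 genes are shown here, read from the array files and placed on mouse build mm9. For Kitl they are on the + strand at chr10:99539477-99539536 (A_55_P2730751), chr10:99542704-99542763 (A_55_P2745567) and chr10:99562481-99562540 (A_51_P133936). For Lepr they are on the + strand at chr4:101452666-101452725 (A_55_P2177910), chr4:101464615-101464674 (A_55_P2177911) and chr4:101486122-101486181 (A_55_P2506350). For Pdgfra they are on the + strand at chr5:75571099-75571158 (A_55_P2734892) and chr5:75593888-75593947 (A_51_P345649). For Il7 they are on the - strand at chr3:7573196-7573255 (A_55_P2732016) and chr3:7611912-7611971 (A_55_P2930083).
Kitl A_55_P2730751: atagacaaacttgggaaaatagtggatgac
Kitl A_55_P2745567: tttatggtggcatctgacactagtgactgt
Kitl A_51_P133936: ctaaggtgactatttatgatcctagaatgt
Lepr A_55_P2177910: aattccctcggcgcttcccttgtgaatttt
Lepr A_55_P2177911: ttgggacgatgttccaaaccccaagaattg
Lepr A_55_P2506350: gttttcgttttgcattttgatgtgtttaca
Pdgfra A_55_P2734892: atggaaaccagatgttccctgttcttgtgt
Pdgfra A_51_P345649: tgtatatatctgttgctatgtagacttgga
Il7 A_55_P2732016: gcacttattccaaagatactgaaccttagt
Il7 A_55_P2930083: cttggattacctacaacctggagagataaa

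With the brightest probe standing for each gene, 6 of the 10 niche genes were called at 1 dpi against Ctrl, all higher, beside 15.2% of all genes called in either direction and 12.3% called higher. At 3 dpi against Ctrl 5 of 10 were called, all higher, beside 8.80% of all genes in either direction and 6.98% higher. At 3 dpi against 1 dpi 4 of 10 were called, all higher, beside 8.80% in either direction and 3.97% higher. Il7 is among the called genes each time, on a probe above background in 2 of 3 Ctrl arrays. With only probes above background on all 9 arrays, 9 of the genes were tested, and 5, 4 and 3 were called higher in these comparisons beside 10.5%, 5.36% and 2.70% of all genes. On their brightest probes the 10 genes had a median change (log2) of 1.46, 1.93 and 0.84 in the 3 comparisons. With every probe as its own feature, 12 of the 21 tested probes were called at 1 dpi against Ctrl, all higher, beside 11.6% of all probes called higher. Of these 12 probes 1, A_55_P2621144 of Lepr, was not above background in Ctrl or at 1 dpi, and that call was lost in 7 of 9 fits that left out an array and under both other scalings. At 3 dpi against Ctrl 14 of 21 were called higher beside 6.58%, and at 3 dpi against 1 dpi 10 of 21 beside 3.75%. The 14 include A_55_P2621144 too, which was tested only through its 3 dpi arrays, so nothing is read from that call. In all, 7 of the 21 were above background on fewer than 3 Ctrl arrays and were tested through the later groups, so the filter could set part of their being higher. Among the 14 probes above background on all 9 arrays, 6, 8 and 6 were called higher in the 3 comparisons, beside 9.50%, 4.64% and 2.28% of all such probes. With a model-based background correction and quantile normalization 3 of the 10 genes and 4 of the 21 probes were called at 1 dpi. The share of all probes called with that setting is not given, so these counts are not set against it. The median of the 21 probes was 1.40, 3.05 and 0.89. The 1.40 is the fitted value of A_55_P2621144 itself, and the next lower probe stood at 1.39. Both comparisons with Ctrl use the same 3 Ctrl arrays, so their values stand side by side and are not independent of each other.

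**Figure D1:**
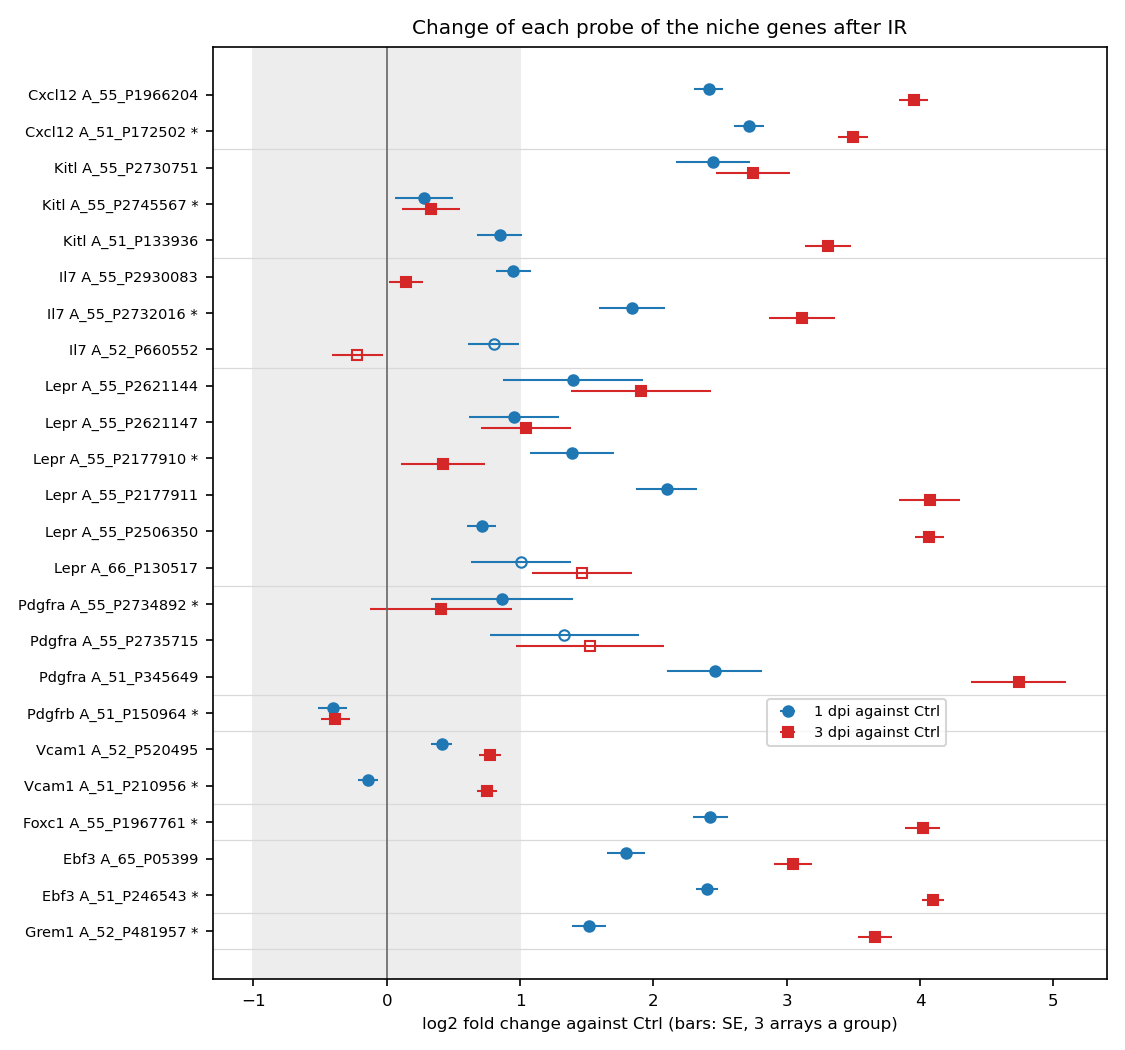
Log2 fold change against Ctrl (x axis, bars ± SE, 3 arrays a group) of each of the 24 probes of the niche genes (y axis), at 1 dpi (circles) and 3 dpi (squares), with open symbols for the 3 probes that were not tested, a star for the probe that stands for its gene, and grey between -1 and 1. Kitl, Lepr and Pdgfra each hold a starred probe under 1 at 3 dpi and another probe over 3.

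Cxcl12 encodes the chemokine that retains stem cells and lymphoid precursors in the marrow. Its probe A_51_P172502 read 1.94, 1.59 and 1.59 in Ctrl, 4.51, 4.32 and 4.44 at 1 dpi, and 5.22, 5.15 and 5.26 at 3 dpi. The second probe, A_55_P1966204, read -1.39, -1.52 and -1.42, then 0.76 and 1.06 in 1 dpi replicates 2 and 3 with replicate 1 just above them, then 2.44, 2.47 and 2.61. On both probes every 1 dpi array lay above every Ctrl array and every 3 dpi array above every 1 dpi array, and all 9 arrays were above background. Groups without overlap were common among all genes, which holds for every probe described below. They were found for 67.5% of the 29410 genes at 1 dpi against Ctrl and 47.0% at 3 dpi against Ctrl. From 1 to 3 dpi the share was 65.5%. The log2 fold change of the first probe was 2.71 (SE 0.11, limma with Benjamini-Hochberg adjusted p 1.9e-06) at 1 dpi and 3.50 (4.9e-07) at 3 dpi, or 6.56-fold and 11.3-fold. On the second it was 2.42 and 3.95, or 5.34-fold and 15.5-fold. From 1 to 3 dpi the first probe moved by 0.79, short of the 2-fold limit, and the second rose by 1.53 (4.7e-05). Fewer cells of a type and less RNA per cell, or more of either, cannot be told apart in RNA from many cells, here and in every result that follows. An exact permutation test of 3 arrays against 3 cannot go below p = 0.10, so the p-values rest on limma's estimate of spread over all genes.

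Kitl encodes stem cell factor, the ligand of the receptor Kit, and its 3 probes gave 3 different courses. The brightest, A_55_P2745567, read -3.14, -2.40 and -2.21 in Ctrl, -2.29, -2.36 and -2.26 at 1 dpi, and -2.26, -2.25 and -2.24 at 3 dpi. The probe nearest the gene's end, A_51_P133936, read -3.97, -4.13 and -3.92, then -3.12, -3.39 and -2.96, then -0.69 and -0.40 in 3 dpi replicates 2 and 3 with replicate 1 just below them. Probe A_55_P2730751 read -6.99, -5.96 and -6.07, then -3.79, -3.82 and -4.07, then -3.33, -3.87 and -3.58, and was above background in 2 of the 3 Ctrl arrays and all later ones. On the brightest probe the groups overlapped and only Ctrl replicate 1 stood low, while on A_51_P133936 the 3 groups stood apart in the order of the days. A_55_P2730751 had its step between Ctrl and 1 dpi, and its 1 dpi and 3 dpi arrays overlapped.

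The brightest Kitl probe was not called, with log2 fold changes of 0.28 (SE 0.21, adjusted p 0.29) at 1 dpi and 0.33 (0.28) at 3 dpi. At 1 dpi the first of these was -0.00 without Ctrl replicate 1 and -0.04 with arrays scaled to their median. At 3 dpi the second was 0.05 and 0.21 in the same order. A_51_P133936 gave 0.85 at 1 dpi, under the 2-fold limit, and rose by 3.31 (SE 0.17, adjusted p 5.0e-06, 9.92-fold) at 3 dpi. It also rose by 2.46 (4.7e-05) from 1 to 3 dpi. A_55_P2730751 rose by 2.45 (SE 0.27, adjusted p 2.3e-04) at 1 dpi and 2.75 (1.8e-04) at 3 dpi, with a difference of 0.30 (0.40) between the days. The probes that differed lie 23004 and 19777 bases before A_51_P133936, and the bases shown above are of these 3 probes.

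Il7 encodes the cytokine that B cell precursors need, and its 3 probes differed too. A_55_P2732016 read -7.17, -6.33 and -6.37 in Ctrl, -4.71, -5.08 and -4.56 at 1 dpi, and -3.65, -3.52 and -3.35 at 3 dpi. A_55_P2930083 read -6.41, -6.31 and -6.50, then -5.34, -5.69 and -5.33, then -6.23, -6.43 and -6.13. The first stood in the order of the days with no overlap, whereas the scaled values of the second were highest at 1 dpi and its 3 dpi arrays overlapped with Ctrl. Each was above background in 2 of 3 Ctrl arrays and in all later arrays, and the third probe, A_52_P660552, was above background on 0 of 9 arrays. In a fit without the filter A_52_P660552 gave 0.80 at 1 dpi and -1.02 from 1 to 3 dpi. The untested probes A_66_P130517 of Lepr and A_55_P2735715 of Pdgfra gave 1.01 and 1.33 at 1 dpi. Before scaling, A_55_P2930083 read 12.3, 19.9 and 17.8 in Ctrl and 15.9, 13.5 and 17.1 at 1 dpi. A_55_P2732016 read 7.27, 19.6 and 19.5 in Ctrl and 24.5, 20.6 and 29.3 at 1 dpi before scaling. How much of the 1 dpi value of either probe is signal was not tested. A_55_P2732016 rose by 1.84 (SE 0.24, adjusted p 5.5e-04) at 1 dpi and by 3.11 (5.0e-05, 8.66-fold) at 3 dpi, and by 1.28 (0.0041) between them. A_55_P2930083 gave 0.95 (5.3e-04) at 1 dpi, just under the 2-fold limit and called without 1 dpi replicate 2, then 0.14 (0.42) at 3 dpi, or 0.38 and -0.20 with quantile normalization and 0.64 and 0.02 with arrays scaled to their median, and -0.81 (0.0016) from 1 to 3 dpi. With a model-based background correction and quantile normalization the 1 dpi value of Il7 was 0.32 and its call was lost, while its 3 dpi value was 1.03 and its call was kept. The call from 1 to 3 dpi was lost with that setting (0.72), with the same correction and the 75th percentile (0.09) and with the mean of the gene's probes (0.23).

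**Figure D2:**
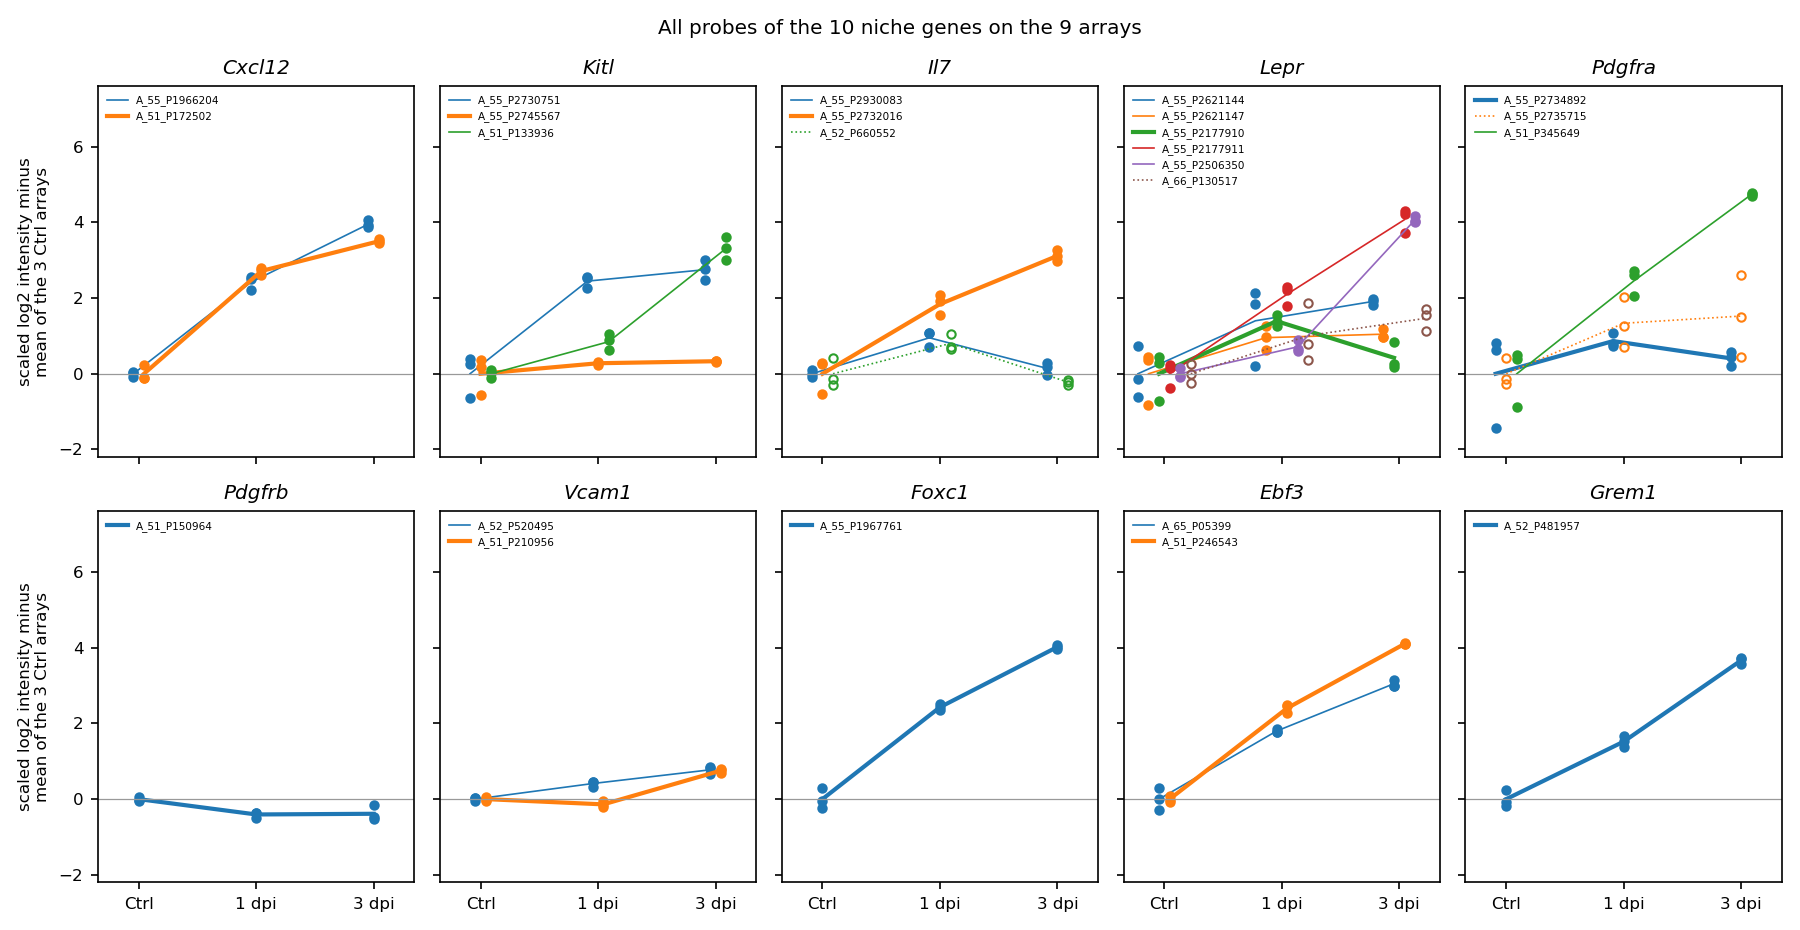
Scaled log2 intensity minus the probe's mean over the 3 Ctrl arrays (y axis) for all 24 probes of the niche genes in Ctrl, at 1 dpi and at 3 dpi (x axis), with 1 point an array, lines through group means, thick lines for the probe that stands for its gene, and open points with dotted lines for the 3 probes not tested. Both Cxcl12 probes climb on both days, while the probes of Kitl, Il7, Lepr and Pdgfra part from each other by 3 dpi.

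Lepr encodes the leptin receptor, the usual mark of the reticular stroma, and has 6 probes. Its brightest, A_55_P2177910, read -1.29, -0.29 and -0.12 in Ctrl, 0.98, 0.70 and 0.81 at 1 dpi, and 0.27, -0.32 and -0.38 at 3 dpi. A_55_P2177911 read -6.87, -6.36 and -6.28, then -4.29, -4.72 and -4.21, then -2.28, -2.80 and -2.22, with 2 of 3 Ctrl arrays above background. A_55_P2506350 read -3.82, -3.77 and -3.58, then -2.85, -3.13 and -3.07, then 0.31, 0.27 and 0.45. The brightest probe was thus highest at 1 dpi and its 3 dpi arrays overlapped with Ctrl, whereas the other two were highest at 3 dpi with no overlap between any groups. A_55_P2621147 read -5.85, -4.57 and -4.65 in Ctrl, -4.04, -3.76 and -4.40 at 1 dpi, and -3.84, -4.04 and -4.05 at 3 dpi, so that its 1 dpi and 3 dpi arrays overlapped and Ctrl replicate 1 was low. A_55_P2621144 was above background only in the 3 arrays of 3 dpi, and A_66_P130517 on 0 of 9 arrays.

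On its brightest probe Lepr rose by 1.39 (SE 0.31, adjusted p 0.0072) at 1 dpi and not at 3 dpi, where the value was 0.42 (0.35). Without Ctrl replicate 1, the array lowest on this probe, these were 1.03 and 0.06. Before scaling, A_55_P2177910 read 429, 1291 and 1492 in Ctrl and 1263, 1132 and 1208 at 1 dpi. The unscaled 1 dpi values thus lay within the Ctrl range, and how much of the 1 dpi rise comes from the scaling was not tested. From 1 to 3 dpi the probe gave -0.97 (0.038), under the 2-fold limit, and among the fits that left out an array it was called only without 3 dpi replicate 1, when it was -1.18. A_55_P2177911 rose by 2.10 (SE 0.22, adjusted p 1.9e-04) at 1 dpi and by 4.07 (7.9e-06) at 3 dpi. A_55_P2506350 gave 0.71 (8.3e-04) at 1 dpi, under the 2-fold limit, and rose by 4.07 (SE 0.10, adjusted p 3.0e-07, 16.8-fold) at 3 dpi. From 1 to 3 dpi these probes rose by 1.97 and 3.36. A_55_P2621147 was called at 3 dpi with 1.05 (0.045), a call lost without Ctrl replicate 1 (0.63), in 7 of 9 fits that left out an array, and under both other scalings. The call of A_55_P2621144 at 3 dpi was lost in 5 of the 9 fits and with quantile normalization.

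Pdgfra and Pdgfrb encode the receptors of the growth factors that platelets carry in their granules. The brightest Pdgfra probe, A_55_P2734892, read -5.88, -3.84 and -3.66 in Ctrl, -3.72, -3.67 and -3.39 at 1 dpi, and -3.88, -4.25 and -4.02 at 3 dpi. A_51_P345649 read -6.25, -7.61 and -6.34, then -4.02, -4.67 and -4.13, then -1.95, -2.03 and -1.99. The first overlapped between Ctrl and each later group, with Ctrl replicate 1 far below the rest, and the second stood in the order of the days with no overlap. On A_51_P345649 1 of the 3 Ctrl arrays was above background, so its Ctrl level is uncertain. The third probe, A_55_P2735715, was above background on 1 of the 9 arrays and was not tested.

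The brightest Pdgfra probe was not called, with 0.86 (SE 0.53, adjusted p 0.19) at 1 dpi and 0.41 (0.59) at 3 dpi, and without Ctrl replicate 1 these were 0.15 and -0.30. A_51_P345649 rose by 2.46 (SE 0.35, adjusted p 7.8e-04) at 1 dpi and by 4.74 (3.8e-05) at 3 dpi, both against a Ctrl group with 1 of 3 arrays above background, and by 2.28 (0.0015) between the days. It lies 22789 bases past the brightest probe. Pdgfrb has 1 probe, A_51_P150964, which read 0.29, 0.22 and 0.19 in Ctrl, -0.13, -0.26 and -0.12 at 1 dpi, and 0.07, -0.29 and -0.25 at 3 dpi. Every irradiated array lay below every Ctrl array, and the 2 days overlapped. The log2 fold changes of Pdgfrb were -0.41 (SE 0.10, adjusted p 0.012) and -0.39 (0.024), under the 2-fold limit. Between 1 and 3 dpi the value was 0.02 (0.90), and -0.10 without 3 dpi replicate 1 or -0.03 without 1 dpi replicate 2.

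Vcam1 encodes the adhesion molecule that binds integrin α4β1 on blood cells. A_51_P210956 read 4.05, 3.96 and 3.94 in Ctrl, 3.77, 3.83 and 3.94 at 1 dpi, and 4.68, 4.74 and 4.79 at 3 dpi. A_52_P520495 read -0.79, -0.80 and -0.87, then -0.36, -0.37 and -0.49, then 0.02, -0.16 and 0.00. Both probes were highest at 3 dpi with no overlap, while at 1 dpi the first lay at or below Ctrl and the second above it. The first gave -0.14 (SE 0.07, adjusted p 0.11) at 1 dpi and 0.75 (1.1e-04) at 3 dpi, and the second 0.41 (0.0026) and 0.77 (1.6e-04). All of these were under the 2-fold limit. At 1 dpi the first was -0.31 with quantile normalization and -0.45 with arrays scaled to their median, and the second 0.39 and 0.10. From 1 to 3 dpi the first gave 0.89 (7.4e-05), which became 1.08 and was called when arrays were scaled to their median.

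Foxc1 and Ebf3 encode transcription factors that keep reticular cells from turning into bone or other stroma. The probe of Foxc1, A_55_P1967761, read -5.49, -5.83 and -6.03 in Ctrl, -3.36, -3.28 and -3.42 at 1 dpi, and -1.77, -1.81 and -1.71 at 3 dpi. The brighter Ebf3 probe, A_51_P246543, read -4.03, -3.97 and -3.88, then -1.49, -1.69 and -1.50, then 0.14, 0.13 and 0.15. Its other probe, A_65_P05399, read -6.36, -6.67 and -6.09, then -4.62, -4.52 and -4.61, then -3.38, -3.39 and -3.22, with 2 of 3 Ctrl arrays above background. All 3 probes stood in the order of the days with no overlap. Between 2 groups, no overlap was found for 67.5%, 47.0% and 65.5% of all genes in the 3 comparisons. Foxc1 rose by 2.43 (SE 0.13, adjusted p 6.7e-06, 5.38-fold) at 1 dpi and by 4.02 (5.7e-07, 16.2-fold) at 3 dpi. Ebf3 rose by 2.40 (SE 0.08, adjusted p 7.7e-07, 5.28-fold) and by 4.10 (1.0e-07, 17.2-fold), and on its other probe by 1.80 (4.0e-05) and 3.05 (2.8e-06). Foxc1 rose by a further 1.59 (9.6e-05) from 1 to 3 dpi and Ebf3 by 1.70 (9.8e-06). With a model-based background correction and quantile normalization Foxc1 was 0.86 at 1 dpi and its call was lost, while at 3 dpi it was 2.15 and Ebf3 at 1 dpi was 1.59, both still called. With that correction and the 75th percentile the value of Foxc1 from 1 to 3 dpi was 0.90, not called.

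Grem1 encodes a secreted inhibitor of bone morphogenetic proteins. Its 1 probe, A_52_P481957, read -3.61, -4.04 and -3.93 in Ctrl, -2.21, -2.34 and -2.48 at 1 dpi, and -0.14, -0.28 and -0.17 at 3 dpi. The groups did not overlap, and the step from 1 to 3 dpi was larger than the step before it. Grem1 rose by 1.52 (SE 0.12, adjusted p 5.7e-05, 2.87-fold) at 1 dpi, by 3.66 (7.3e-07, 12.7-fold) at 3 dpi, and by 2.15 (2.4e-05) between them. With a model-based background correction and quantile normalization the 1 dpi value was 0.84 and its call was lost.

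Ranked by log2 fold change at 3 dpi against Ctrl among the 29410 genes tested, Ebf3 stood at 42, Foxc1 at 55, Grem1 at 103, Cxcl12 at 120 and Il7 at 209, and the other 5 at 3852 (Vcam1), 7415 (Lepr), 7642 (Pdgfra), 9133 (Kitl) and 25830 (Pdgfrb). At 1 dpi Cxcl12 stood at 271, Foxc1 at 381, Ebf3 at 396, Il7 at 843, Grem1 at 1430 and Lepr at 1885, and the rest at 5504 (Pdgfra), 14245 (Kitl), 21026 (Vcam1) and 24755 (Pdgfrb). The order of Cxcl12, Ebf3, Grem1, Foxc1 and Il7 changed under a model-based background correction and quantile normalization. Their log2 changes, as named, were then 3.52, 3.19, 2.79, 2.15 and 1.03 at 3 dpi. The 1 dpi values were 2.59, 1.59, 0.84, 0.86 and 0.32. Ranks among all genes are not given for that setting. The Il7 probe was above background in 2 of 3 Ctrl arrays. Of the 5 genes called at both days, Cxcl12 had reached 77.5% of its 3 dpi log2 change by 1 dpi, Foxc1 60.4%, Il7 59.1%, Ebf3 58.6% and Grem1 41.5%. With a model-based background correction and quantile normalization these were 73.4% for Cxcl12, 39.7% for Foxc1, 30.6% for Il7 and 49.7% for Ebf3, and the log2 changes of Grem1 were 0.84 at 1 dpi and 2.79 at 3 dpi. These shares describe group means of the brightest probes, and on the other Cxcl12 probe the log2 changes were 2.42 at 1 dpi and 3.95 at 3 dpi.

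In the log2 table the authors deposited, each of the 10 genes has 1 value an array. Once the array intensities were put on the scale of that table, through genes with 1 probe, each gene's value followed 1 of its probes, with a largest difference of 0.00858. For Cxcl12 it was A_55_P1966204, for Kitl A_51_P133936, for Lepr A_55_P2506350 and for Pdgfra A_51_P345649, none of which is the brightest probe. For the other 6 genes it was the brightest. The deposited values of Kitl, Lepr and Pdgfra gave log2 fold changes at 3 dpi of 3.17, 3.92 and 4.48, where the brightest probes gave 0.33, 0.42 and 0.41. The mean of each gene's tested probes gave 2.13, 2.30 and 2.57, and for Lepr 2.40 (9.3e-05) without A_55_P2621144. At 3 dpi 8 of the 10 genes were called with the deposited values, beside 11.4% of all genes, and 8 with the mean of the probes, beside 8.77%. At 1 dpi these were 6 beside 16.8% and 8 beside 14.3%, and from 1 to 3 dpi 8 beside 12.4% and 4 beside 7.90%, in the same order. The mean without A_55_P2621144 gave 8, 8 and 5 at 1 dpi, at 3 dpi and between the days. At 1 dpi the deposited value of Lepr was 0.40, which was not called.

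**Figure D3:**
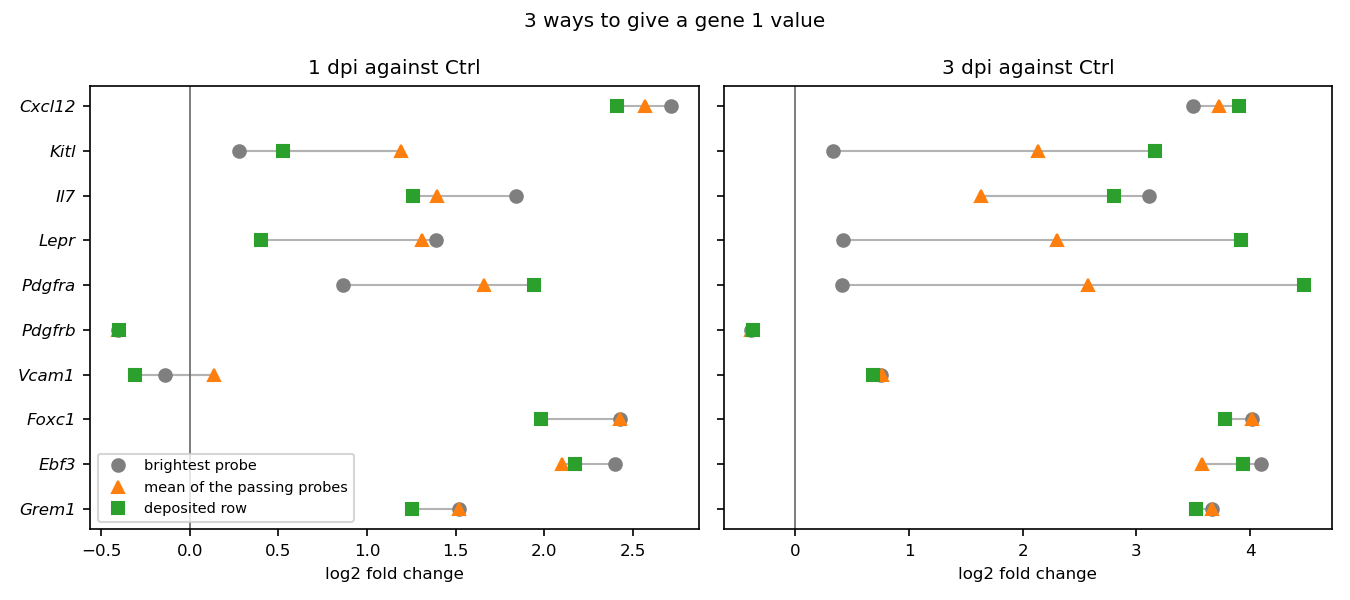
Log2 fold change against Ctrl (x axis) of each niche gene (y axis) at 1 dpi and 3 dpi when its value is the brightest probe (circles), the mean of its tested probes (triangles) or the deposited value (squares), each a difference of means of 3 arrays. At 3 dpi the 3 symbols lie far apart for Kitl, Lepr and Pdgfra, with the brightest probe at 0.33, 0.42 and 0.41, and close together for Pdgfrb, Vcam1 and Grem1.

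Placed along the gene, the last probe with signal gave a larger change at 3 dpi than the brightest one in Kitl, Lepr and Pdgfra. In Cxcl12, Vcam1, Ebf3 and Il7 the last probe with signal was itself the brightest. Its change was smaller than that of the earlier probe in Cxcl12 (3.50 against 3.95) and Vcam1 (0.75 against 0.77). It was larger in Ebf3 (4.10 against 3.05) and Il7 (3.11 against 0.14). For Lepr the change was 0.42 on the brightest probe, 35192 bases before its last probe, and 4.07 on both A_55_P2177911, 23243 bases before it, and A_55_P2506350, 1736 bases before it. In Kitl the earliest probe, A_55_P2730751, also rose, so position alone did not order the values there. The arrays' own annotation assigns all Kitl probes to the same transcript record, and so too A_55_P2177910 and A_55_P2177911 of Lepr. It assigns A_55_P2506350 of Lepr to another record. A_55_P2734892 and A_51_P345649 of Pdgfra have different records, as do A_55_P2732016 and A_55_P2930083 of Il7. Which transcripts each probe reads was not tested, and part of any difference between probes of 1 gene may not be a difference in that gene's amount.

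Promoters of the niche genes were read from RefSeq on build GRCm38.p6, as the 250 bases before the start. The table has 8 promoters for 7 of the 10 genes, Cxcl12, Ebf3, Foxc1, Grem1, Kitl, Lepr and Pdgfra. Foxc1 and Grem1, with 1 probe each, rose at both days and are not shown. Those of Ebf3, on the - strand at chr7:137314446-137314695, and Cxcl12, on the + strand at chr6:117168285-117168534, are shown since each gene has 2 probes and rose on both at both days, with the GC box GGGCGG, on either strand, in capitals.
Ebf3: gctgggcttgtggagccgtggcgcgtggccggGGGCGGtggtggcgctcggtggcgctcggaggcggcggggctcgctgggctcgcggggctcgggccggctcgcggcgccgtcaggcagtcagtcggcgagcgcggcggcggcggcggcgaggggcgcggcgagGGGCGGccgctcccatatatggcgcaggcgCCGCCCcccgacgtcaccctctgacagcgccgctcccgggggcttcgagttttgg
Cxcl12: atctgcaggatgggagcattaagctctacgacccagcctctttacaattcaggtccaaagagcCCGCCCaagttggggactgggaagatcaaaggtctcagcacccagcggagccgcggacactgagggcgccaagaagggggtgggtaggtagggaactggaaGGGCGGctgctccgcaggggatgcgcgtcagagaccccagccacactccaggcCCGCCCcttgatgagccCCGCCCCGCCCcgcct

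The GC box was in 6 of the 8 promoters and in 32.7% of the 32817 promoters of the table. The TATA letters TATAAA were in 1 of the 8, that of Kitl, and in 12.4% of all. The palindromic Ebf motif was in 0 of 8 and in 0.78% of all, and the forkhead letters GTAAACA were in 0 of 8 and in 3.16% of all. Both strands were searched, and the counts describe these windows alone.

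The course of the 10 genes was summarised as the mean of their scaled log2 values, each centred on its own mean over the 9 arrays. Pearson's r to this mean, over the 9 arrays and with no test, was 0.992 for Il7 and Ebf3, 0.977 for Foxc1, 0.973 for Cxcl12 and 0.946 for Grem1. It was 0.650 for Vcam1, 0.617 for Kitl, 0.446 for Lepr, 0.418 for Pdgfra and -0.791 for Pdgfrb. Each of the 10 is itself part of the mean. The 8 other genes most like the mean were Adamts4 (0.999), Col22a1 (0.997), Frmd3 (0.997), Ralgds (0.997), Pcolce (0.996), Ift43 (0.996), Ddr2 (0.996) and Tpm1 (0.996). An r over 0.95 was found for 791 of the 29410 genes.

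Of 30 other genes of reticular stroma, 17 were called at 1 dpi against Ctrl, 15 of them higher and 2 lower, and the median change was 0.98 (log2). At 3 dpi it was 21 higher and 2 lower, with a median of 2.17, and from 1 to 3 dpi 13 higher and 0 lower, with 0.85. Of all genes 12.3%, 6.98% and 3.97% were called higher in these 3 comparisons, and 15.2%, 8.80% and 8.80% in either direction. The niche genes' medians of 1.46, 1.93 and 0.84 lie beside the medians of this list. The 4 with the largest changes at 1 dpi were Snai2 (3.46), Gas6 (3.16), Bmp4 (2.98) and Ebf1 (-2.84), and at 3 dpi Snai2 (4.70), Gas6 (4.61), Fstl1 (4.31) and Adipoq (4.23). Between the days they were Adipoq (3.48), Igfbp5 (2.24), Agt (2.07) and Cdh2 (1.63). Ebf1 and Angpt1 were the 2 lower genes on both days and were singled out after their values were seen. With arrays scaled to their median the counts at 1 dpi were 12 higher and 2 lower.

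Of 19 ligands, receptors and proteases that pair with the niche genes, 2 were called at 1 dpi (1 higher, 1 lower), 4 at 3 dpi (3 higher, 1 lower) and 1 from 1 to 3 dpi (higher), with medians of 0.27, 0.32 and 0.03. The called genes were 10.5%, 21.1% and 5.26% of the list, beside 15.2%, 8.80% and 8.80% of all genes called in either direction. At 1 dpi and from 1 to 3 dpi the list's share was thus below that of all genes. Kit, the receptor of Kitl, fell by 1.08 on the log2 scale at 1 dpi and by 1.32 at 3 dpi, the first a call lost without Ctrl replicate 1 or 1 dpi replicate 1. Mmp9 gave 1.00 at 1 dpi, a call lost in 4 of 9 fits that left out an array and under both other scalings. With quantile normalization and with arrays scaled to their median, 0 were called higher and 2 lower at 1 dpi, with medians of 0.21 and -0.04. The second of these was Dpp4, at -1.01 and -1.29, which gave -0.98 otherwise and was also called without Ctrl replicate 1 or 1 dpi replicate 3. Among the ligands of Pdgfra and Pdgfrb, Pdgfc rose by 2.26, Pdgfd by 1.56 and Pdgfa by 1.25 at 3 dpi, and Pdgfc by 2.56 from 1 to 3 dpi. Cxcr4, Itga4 and Il7r, the partners of Cxcl12, Vcam1 and Il7, were singled out after their values were seen. They gave 0.09, -0.40 and -0.63 at 1 dpi and -0.32, -0.43 and -0.61 at 3 dpi, all short of the 2-fold limit.

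Markers of other cell types moved in the same arrays, and their part in the results of the niche genes was not tested. Of all genes 12.3% were called higher at 1 dpi and 6.98% at 3 dpi, both against Ctrl. In either direction the shares were 15.2% and 8.80%. They stand beside the counts of every cell type list here and below. Of 10 osteoblast markers 6 were called higher at 1 dpi and 8 at 3 dpi, with medians of 1.64 and 3.01, led by Bglap2 (2.79 and 3.97) and Bglap (2.54 and 3.75). Their mean level lay between -2.84 and -2.29 in Ctrl, -1.05 and -0.87 at 1 dpi, and -0.06 and 0.07 at 3 dpi. The mean level of the niche genes lay between -2.43 and -2.05, then -0.99 and -0.85, then -0.27 and -0.13. Of 14 endothelial markers 6 and then 9 were called higher, with medians of 0.86 and 1.70, led by Stab1 (3.65 and 4.03). At 1 dpi quantile normalization gave 5 higher and 1 lower. Scaling arrays to their median gave 4 higher and 1 lower there, with a median of 0.55. Of 15 macrophage markers 7 were called at 1 dpi (5 higher, 2 lower) and 12 at 3 dpi (all higher), with medians of 0.40 and 1.83, led by Timd4 (-2.52) at 1 dpi and Siglec1 (2.84) at 3 dpi. The median of the macrophage markers at 1 dpi was 0.09 when arrays were scaled to their median. Of 8 adipocyte markers 2 and then 5 were called higher, with medians of 0.78 and 1.64, led by Fabp4 (1.73) at 1 dpi and Adipoq (4.23) at 3 dpi. With arrays scaled to their median 1 of them was called at 1 dpi, and the list's median was 0.46. Adipoq is counted among the other reticular genes as well, so these lists are not separate. The fibroblast marker Dpt was not tested, and of the 9 others 5 and then 5 were called higher, with medians of 1.49 and 1.48, and Loxl1 gave 2.85 and 4.02.

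Of 9 mural cell markers 4 were called higher at 1 dpi and 3 at 3 dpi, with medians of 0.78 and 0.66, and Tagln gave 4.12 and 2.05. With arrays scaled to their median 3 mural markers were called at 1 dpi, and the list's median was 0.46. Of 9 B cell markers 8 were called lower on each day, with medians of -3.74 and -3.17, and Vpreb3 gave -5.42 and -3.96. Of 9 erythroid markers 8 were called at 1 dpi (2 higher, 6 lower) and 8 at 3 dpi (all lower), with medians of -2.09 and -2.02, and Ahsp gave -7.62 and -2.63. Of 8 T and NK cell markers 2 and then 4 were called higher, with medians of 0.51 and 1.36, and Gzma gave 1.19 and 2.23. At 1 dpi 1 of these calls was lost without Ctrl replicate 1 or with quantile normalization, and both when arrays were scaled to their median, with Gzma at 0.88 and the list's median at 0.19. Of 9 neutrophil markers 2 were called higher at 1 dpi, S100a8 (1.14) and S100a9 (1.02). Both calls were lost when arrays were scaled to their median and with quantile normalization, and 1 without Ctrl replicate 1. The list's median at 1 dpi was 0.48, and -0.20 with quantile normalization. At 3 dpi limma called 0 neutrophil markers, with 2 at an unadjusted p under 0.05 and 0 by the methods' test.

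**Figure D4:**
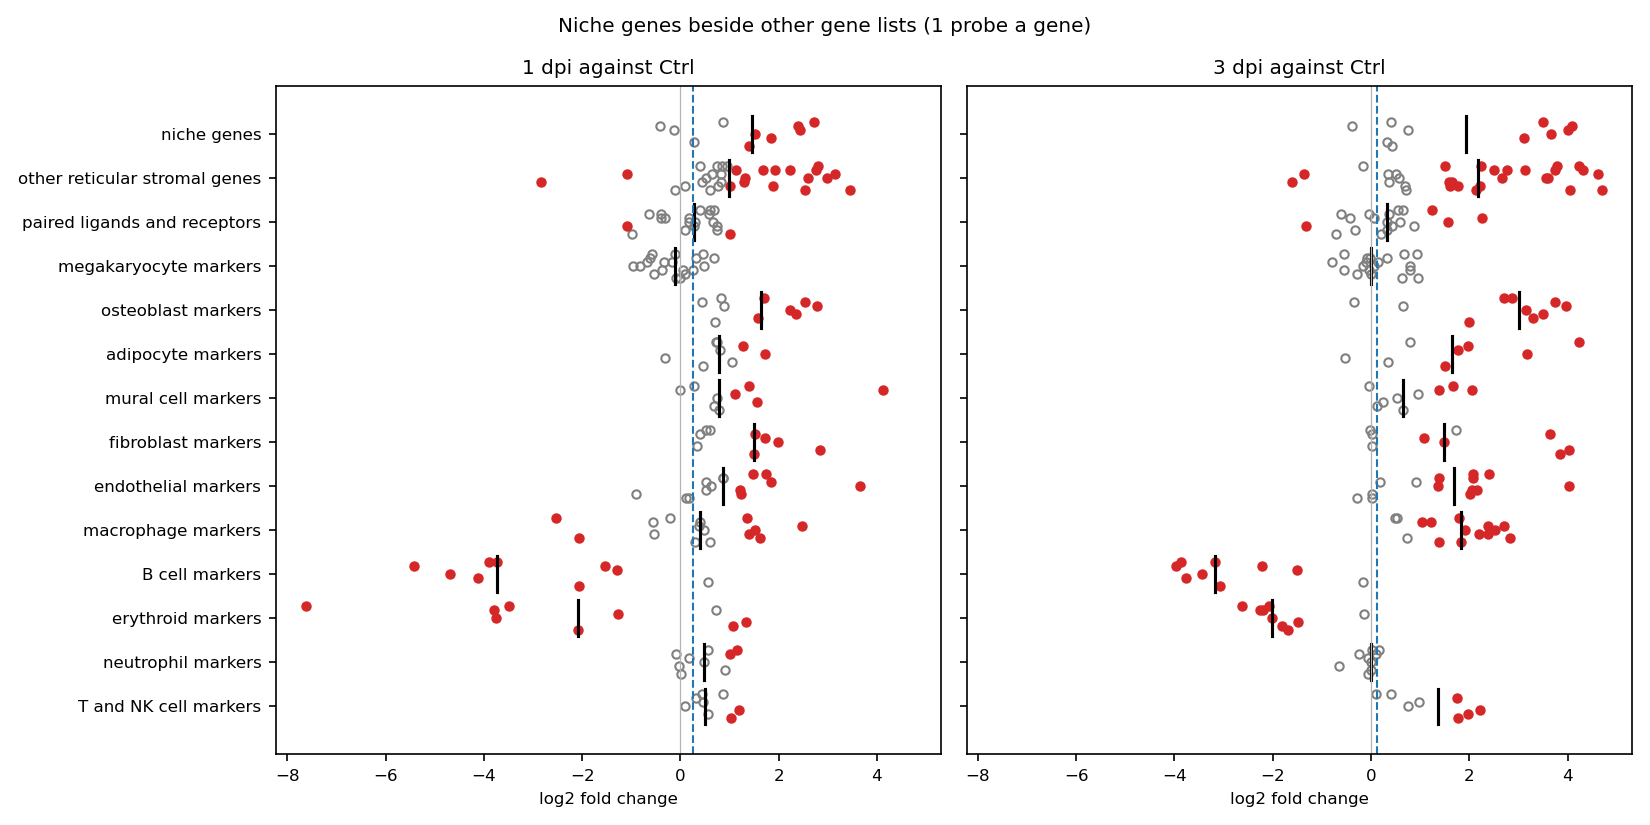
Log2 fold change (x axis) of each gene of the niche list and of 13 other lists (y axis) at 1 dpi and 3 dpi against Ctrl, with 1 point a gene, filled where called, a black bar at each list's median and a dashed line at the median of all genes tested (0.25 and 0.11). The medians of the niche genes, other reticular genes, osteoblast and adipocyte markers lie further right at 3 dpi than at 1 dpi. So do those of endothelial, macrophage, and T and NK cell markers. The medians of B cell and erythroid markers lie left of 0 on both days. Adipoq is drawn both among other reticular genes and among adipocyte markers.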

How the data were processed

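Agilent Feature Extraction 10.7.1.1 made the intensity values, which the authors deposited for 9 arrays as background-subtracted green signal per spot. A second deposited file gives 1 log2 value per gene and array, with nearly equal quartiles on all arrays. Of 62976 spots 3671 were controls. Probes printed more than once were averaged, 20 probes marked as outliers on an array were dropped, and 32984 probes took a current name through RefSeq accessions while 23601 kept the name on the array. Log2 intensity minus each array's 75th percentile over all non-control spots was fitted with limma 3.58.1 in R 4.3.3 (data.table at version 1.17.8), with 3 group means and Benjamini-Hochberg adjustment over 29410 genes, the brightest probe standing for a gene, or over 44300 probes. A call needed an adjusted p under 0.05 and an absolute log2 fold change of at least 1. The fit was tested on simulated data. Python 3.11.15 and matplotlib 3.10.9 drew the plots.

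The members, the other lists and the tests were chosen with earlier results of these data known. All 10 members were described. Of each other list up to 4 called genes with the largest change were named (up to 2, against Ctrl, for lists of other cell types), among genes above background on all arrays compared, and the 8 genes with the highest Pearson r to the members' mean. The alternatives were quantile and array-median scaling, normexp background correction (offset 50), other filters on dim probes, no minimum fold, only the compared groups, blocks for replicate number or slide, the methods' t-test, leaving out each array, the mean of a gene's probes, and the deposited values. That mean without A_55_P2621144 of Lepr was added after the data were seen. With slide as a block, the array alone on its slide carries no weight in the comparisons.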

Additional observations from a re-analysis of the deposited data

Results flagged for a closer look

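For 10 of the 21 tested probes of the niche genes the change at 3 dpi was higher than the change at 1 dpi. The limits were at least 2-fold and limma's test of the difference itself, which 3.75% of all probes met in that direction. Since both changes are taken from the same Ctrl arrays, this difference is the comparison of 3 dpi with 1 dpi. On the log2 scale the difference was 1.59 (SE 0.13, adjusted p 9.6e-05) for Foxc1, 1.70 (SE 0.08, 9.8e-06) for Ebf3, 1.28 (SE 0.24, 0.0041) for Il7 and 2.15 (SE 0.12, 2.4e-05) for Grem1, each on the probe that stands for the gene. On other probes it was 1.53 (SE 0.10, 4.7e-05) for A_55_P1966204 of Cxcl12, 2.46 (SE 0.17, 4.7e-05) for A_51_P133936 of Kitl, and 1.25 (SE 0.14, 3.3e-04) for A_65_P05399 of Ebf3. For Lepr it was 1.97 (SE 0.22, 3.8e-04) on A_55_P2177911 and 3.36 (SE 0.10, 5.8e-06) on A_55_P2506350, and for Pdgfra 2.28 (SE 0.35, 0.0015) on A_51_P345649. The brightest probes of Kitl, Lepr and Pdgfra gave 0.05, -0.97 and -0.46 for the same difference, none of them called. The other Il7 probe, A_55_P2930083, gave -0.81 (SE 0.13, 0.0016), under the 2-fold limit and in the other direction.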

How the results depend on the processing

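Under the alternatives 251 counts of called genes or probes lay within 1.5 times the reported one and 28 did not. The log2 fold changes of the 10 genes kept direction and side of the threshold in 661 cases, gained a call in 29, lost one in 9 and changed sign in 18. The cause was not tested except where the alternative's own construction shows it. Many of the 661 had their direction fixed in advance, so 661 is no measure of robustness. The t-test, adjusted p alone, the replicate block and leaving out an array not compared keep the fold change.

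With normexp correction and quantile normalization 3 of the niche genes, 4 of their probes and 1 paired gene were called at 1 dpi. Where no share of all genes or probes is printed beside a count here, nothing is read from its rise or fall. With normexp and the 75th percentile 1 paired gene was called at 1 dpi, and 6 probes and 8 other reticular genes from 1 to 3 dpi. Under normexp the probe standing for Pdgfra becomes A_51_P345649. Counting only probes above background on all 9 arrays, which drops Il7 and leaves 14 of the 21 probes to test, gave 6, 8 and 6 called probes in the 3 comparisons, beside 9.50%, 4.64% and 2.28% of all such probes called higher. With adjusted p alone, and so with no minimum fold, 27 other reticular genes and 16 paired genes were called at 1 dpi, 15 paired genes at 3 dpi, and 7 niche, 24 other reticular and 11 paired genes from 1 to 3 dpi. The 8.80% of all genes called from 1 to 3 dpi holds with the 2-fold limit and does not apply to these counts. Quantile and array-median scaling each gave 2 paired genes from 1 to 3 dpi. The mean of a gene's probes gave 1 paired gene at 1 dpi and 8 niche genes at 3 dpi, and without A_55_P2621144 of Lepr, a choice made after the data were seen, also 1 and 8. The deposited values gave 1 paired gene at 1 dpi, and 8 niche genes at 3 dpi and 8 from 1 to 3 dpi, and they read another probe than the brightest for 4 of the genes.

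Leaving out each array in turn gave 6 niche genes at 1 dpi, 5 at 3 dpi, and 4 to 5 from 1 to 3 dpi, and 1 to 2 paired genes at 1 dpi. Called probes ranged over 11 to 13, 12 to 13 and 10 to 11, and other reticular genes over 14 to 19, 23 to 23 and 11 to 14.

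Kitl changed sign at 1 dpi with the array median (-0.037) and with slide as a block or without Ctrl replicate 1 (-3.9e-04 in each), and from 1 to 3 dpi with normexp and the 75th percentile (-0.12). Pdgfra changed sign at 3 dpi with slide as a block or without Ctrl replicate 1 (-0.30 in each), and leaving out arrays in turn gave -0.30 to 0.81 there and -3.9e-04 to 0.47 for Kitl at 1 dpi. From 1 to 3 dpi Pdgfra gave 1.15 with normexp and the 75th percentile, 1.67 with normexp and quantile normalization, 0.91 with the mean of probes and 2.53 with the deposited values. Lepr gave 0.99 and 3.52 there with the mean of probes and the deposited values, and 1.11 with the mean without A_55_P2621144. Vcam1 gave 0.14 at 1 dpi with the mean of probes, with or without that Lepr probe, and Pdgfra 0.91 from 1 to 3 dpi in both. Pdgfrb from 1 to 3 dpi was -0.03 without 1 dpi replicate 2 and -0.096 without 3 dpi replicate 1, a range of -0.096 to 0.086.

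Of all called genes at 1 dpi 81.1% were higher, against 56.3% with quantile normalization, 48.8% with the array median, 68.7% with normexp and quantile normalization, 62.3% with adjusted p alone and 49.8% with the deposited values. From 1 to 3 dpi the share was 45.2%, against 62.9% with quantile normalization, 67.2% with the array median, 24.9% with normexp and the 75th percentile, 26.7% with no filter on dim probes, and 62.7% with the deposited values. At 3 dpi it was 79.4%, against 52.7% with adjusted p alone and 66.9% with the deposited values.

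Arrays with the same replicate number had correlations of their deviations between -0.11 and 0.13 over 9 pairs, and those with other numbers between -0.15 and 0.10 over 18 pairs, so the numbers were not taken to pair the arrays. With replicate number as a block 6, 5 and 4 niche genes and 12, 13 and 10 probes were called, and 4273, 2498 and 2494 of all genes. The other counts under that block were 17, 23 and 13 other reticular genes and 2, 4 and 1 paired genes.

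Of the 24 probes 3 were not above background on all arrays of any group, and 7 of the tested probes were above it on fewer than 3 Ctrl arrays, which limits how low their Ctrl level can be read. With 3 arrays a group a call can rest on 1 of them. Whether probes of 1 gene read the same transcripts, and how many cells of each type were in each preparation, was not measured.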
